A study of Mus musculus with 13 samples.

Results

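Miscellaneous noncoding RNA (misc_RNA) is the class under which the deposited sperm tables list a mixed set of noncoding RNAs; a few, such as 7SK and a U8 snoRNA, also have entries under other classes of the same files. The 80 RNAs described here are all misc_RNA entries with 100 or more raw counts in each of the 4 sperm libraries, out of 1807 misc_RNA entries and 69575 sperm RNA entries in all. They were chosen by their raw counts, so their abundance is a description and not a result. The sperm came from the cauda epididymis, where mature sperm are stored, of Swiss mice. Fathers of the AAE group (epididymal exposure) received acrylamide, a reactive compound formed when starchy food is heated, by intraperitoneal injection at 25 mg/kg per day on 5 days, and their sperm were collected 3 days after the last injection. Control fathers received the vehicle PBS alone. There were 2 AAE and 2 control sperm libraries. The embryos used further on were made by in vitro fertilisation with sperm of AAE fathers, of AAS fathers (spermatocyte exposure, the same dose with sperm collected 24 days after the last injection) or of control fathers, with 3 libraries of each.

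By Name, the 80 RNAs comprised 27 entries of the ribosomal RNA precursor and its spacers, 21 oocyte clustered small RNAs, 9 predicted genes, 8 germline small RNAs, 2 vault RNAs, 1 7SK RNA, 1 RNase P RNA and 11 other named RNAs. No entry was named as a Y RNA or as the RNA of the signal recognition particle. Ribosomal RNA is made as a long precursor whose external and internal spacers are cut away, and the presence of spacer sequence marks precursor or its fragments. The 7SK RNA holds the kinase P-TEFb in an inactive complex with HEXIM, LARP7 and MEPCE and thereby restrains elongation by RNA polymerase II. Vault RNAs bind a large cytoplasmic ribonucleoprotein particle, and the RNase P RNA is the catalytic core of the enzyme that trims the leader from precursor tRNAs. Mature sperm are largely silent in transcription, and their small RNA is mostly made of fragments of tRNA and rRNA, with miRNAs and piRNAs.

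Summed over all entries, the libraries held 15356820 and 12810223 counts in AAE and 14571528 and 13445938 counts in control. The labels do not say that replicates came from separate animals, so p-values measure the spread between these libraries. AAE replicate 2 stood apart in composition. Its TMM factor, edgeR's correction for differences in composition between libraries, was 1.65, against 0.722 in AAE replicate 1 and 0.930 and 0.903 in control. For that reason levels are given as CPM (counts per 1000000 counts) after TMM scaling, and where it matters also as unscaled CPM, which divides by all counts of the library without that factor. The 17 germ cell miRNA entries, with miR-34c-5p at the top, summed to 8421 and 13632 unscaled CPM in AAE and 7889 and 4902 in control, so the defining germ cell miRNAs were present. The 11 miRNA entries of epididymal epithelium summed to 1817 and 2702 unscaled CPM in AAE and 772 and 1422 in control, none of them at 0. The 5 leukocyte miRNA entries summed to 37.8 and 66.5 unscaled CPM in AAE and 29.6 and 19.2 in control. Most of these counts came from miR-146a-5p, with 480 and 736 in AAE and 329 and 209 in control. The other entries had at most 45 counts in any library, and miR-142a-3p had 43 and 45 in AAE and 44 and 17 in control. Further leukocyte miRNAs looked for were not matched. On this scale the 3 sums were higher in both AAE libraries than in both control libraries. So was the whole miRNA class, at 5.35% and 7.53% of all counts in AAE and 4.23% and 3.34% in control. After TMM scaling the germ cell sum overlapped between groups, at 11738 and 8392 CPM in AAE and 8543 and 5470 CPM in control. The epithelial and leukocyte sums stayed higher in both AAE libraries. The part of these sums in the results below was not tested. In such bulk libraries, fewer cells of a type and less RNA per cell cannot be told apart.

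None of the 80 RNAs differed between AAE and control sperm at an adjusted p of 0.05 (edgeR quasi-likelihood test, Benjamini-Hochberg over 21008 entries, smallest adjusted p = 0.945). Of all entries tested, 0% were called. At an unadjusted p under 0.05, 2 of the 80 (2.5%) passed, both with higher values in AAE, where 4.82% of all entries passed, 2.59% with higher and 2.23% with lower values; with DESeq2 the number was 0 of the 80. The median log2 fold change of the 80 was 0.39, beside 0.00 for all entries tested. Of the 80, 60 (75%) were above 0, beside 49.9% of all entries, and 20 below 0, beside 50.1%. Among entries of all types with 100 or more counts in each library, 49.3% were above 0. By type, the share was 94.7% for miRNA, 96.4% for snoRNA, 82.8% for snRNA, 42.2% for piRNA, 24.1% for tRNA and 2.69% for rRNA entries. Replicate spread was large. The gap between both AAE libraries exceeded the group difference for 70 of the 80 RNAs (87.5%), and the gap between both control libraries did so for 43 (53.8%). Over entries of all types with 100 or more counts in each library, these shares were 72.3% and 52.1%. On the TMM scale, AAE replicate 1 lay above AAE replicate 2 for 73 of the 80 (91.3%), beside 77.6% of those entries.

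**Figure D1:**
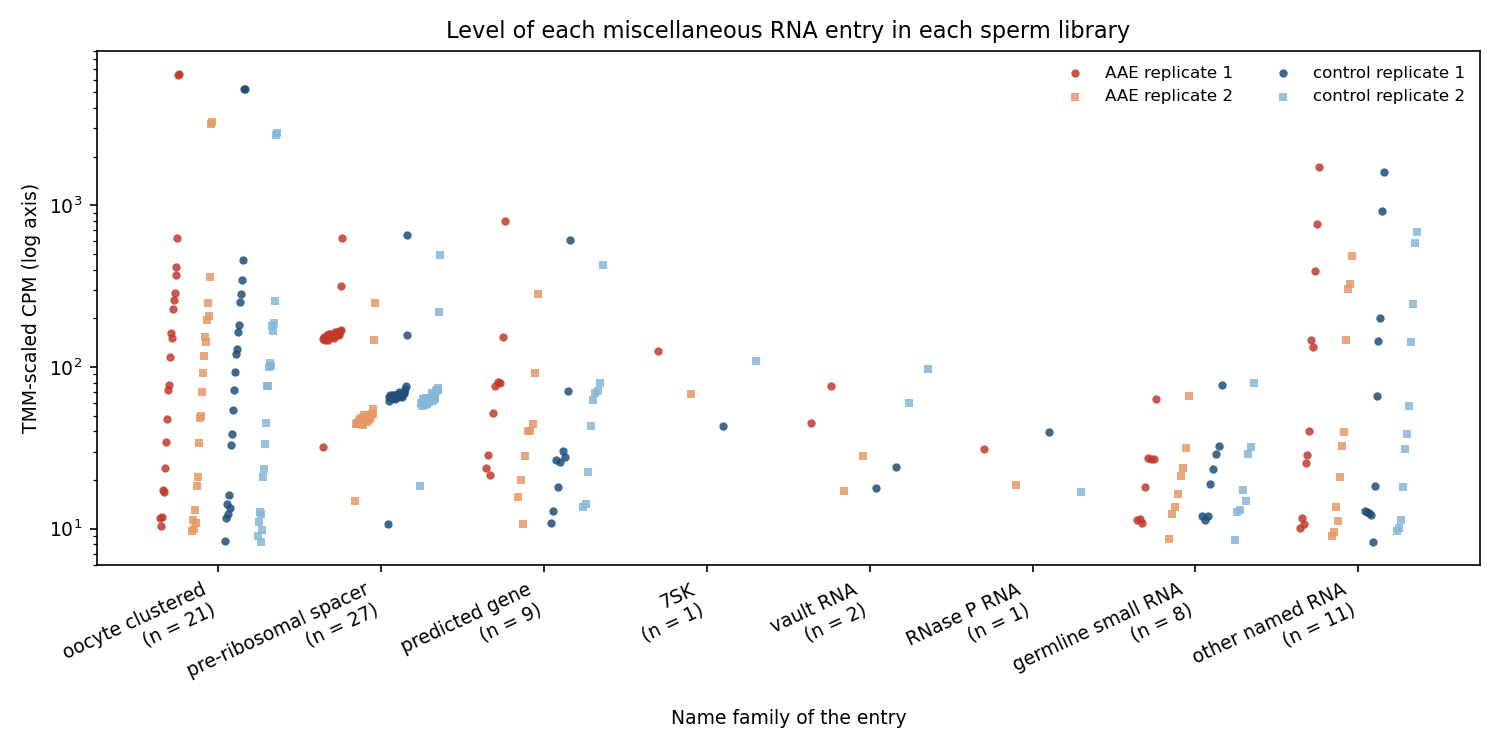
TMM-scaled CPM (log axis) of each of the 80 misc_RNA entries in the 4 sperm libraries, by Name family; each point is 1 entry in 1 library. The oocyte clustered pair 14235 and 14236 lies far above the rest, and the spacer entries form a tight cloud that is high in AAE replicate 1 and low in AAE replicate 2.

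**Figure D2:**
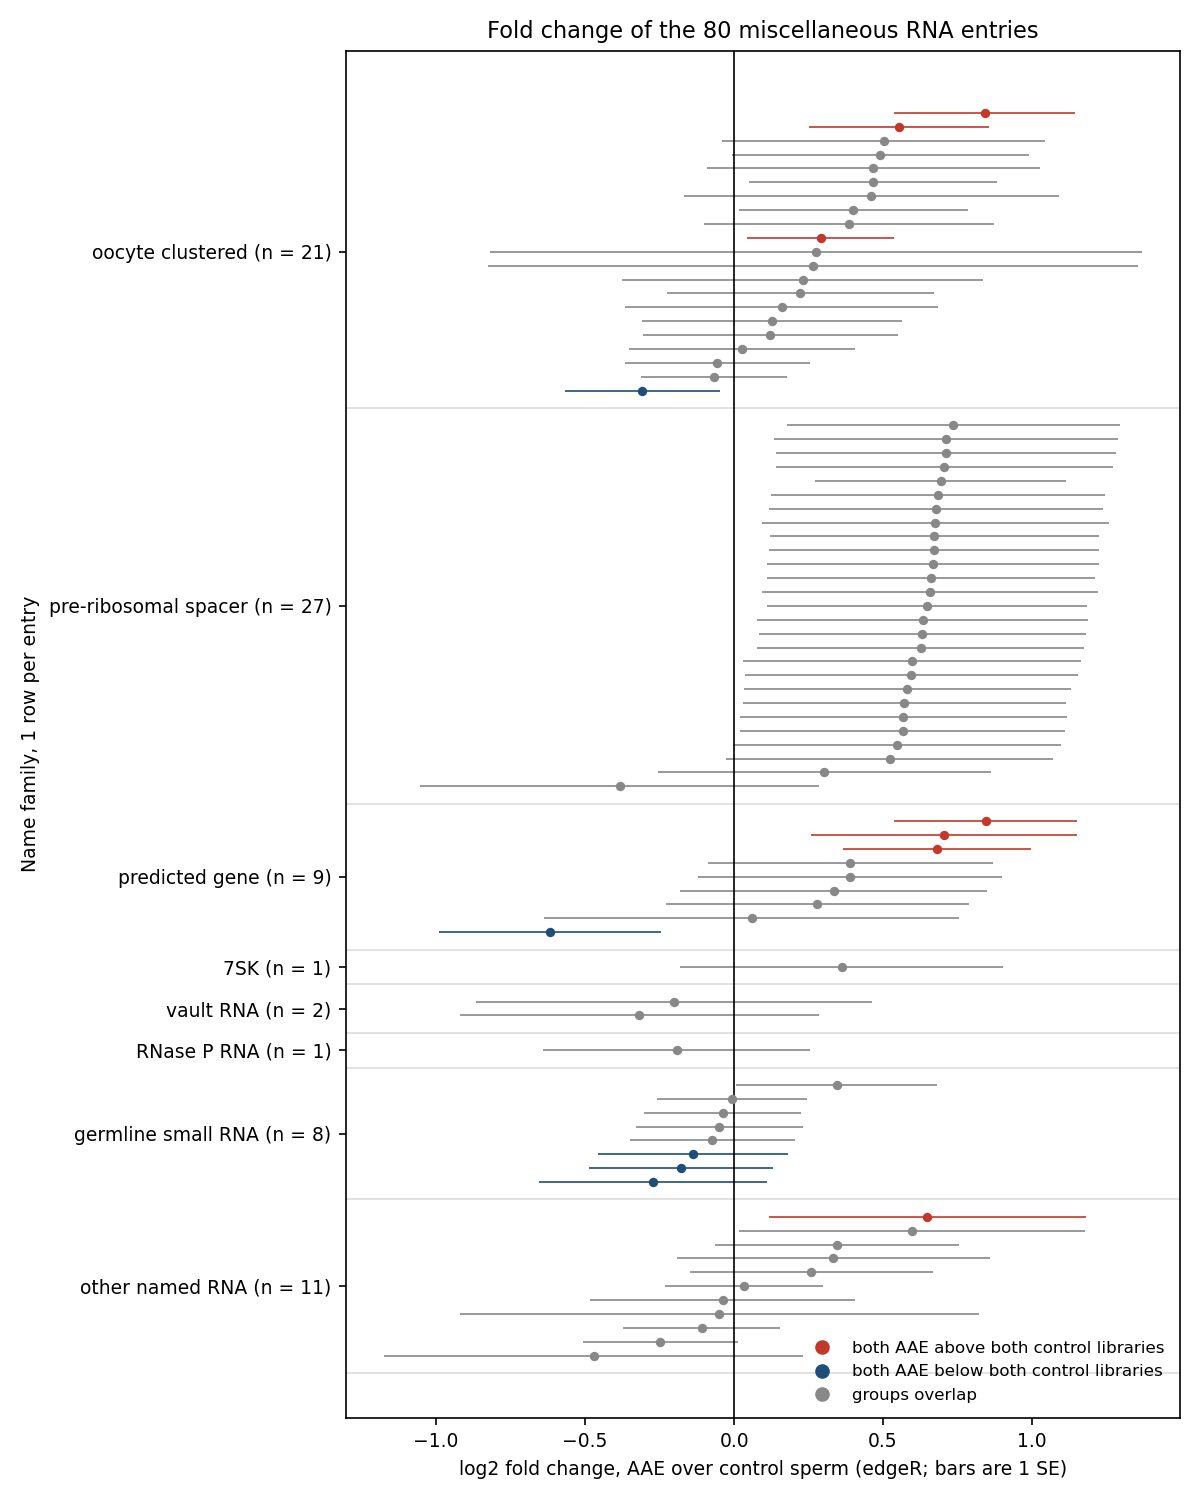
The log2 fold change of each of the 80 entries, AAE over control sperm, with bars of 1 SE from the edgeR fit, by Name family. Red marks the 7 entries (8.75%) with both AAE libraries above both control libraries, beside 16.8% of all entries, blue the 5 (6.25%) with both below, beside 17.8% of all entries, and grey the 68 whose groups overlapped; none passed the adjusted threshold.

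Together the 80 RNAs held 96.8% and 95.4% of all misc_RNA counts in AAE and 97.0% and 94.3% in control. The whole misc_RNA class took 1.90% and 2.06% of all counts in AAE and 1.85% and 1.17% in control. Both AAE shares lay above both control shares, with a difference of 0.469 percentage points (two-sided exact permutation p = 0.333, the smallest that 2 against 2 libraries can give). Without control replicate 2 the difference was 0.132 percentage points. Among counts outside tRNA and rRNA, the class took 5.49% and 4.89% in AAE and 6.08% and 3.73% in control, and there the groups overlapped (exact permutation p = 1).

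The oocyte clustered small RNAs, named for small RNAs that map in clusters and were described in oocytes, were the most abundant family. A pair of entries with near-identical counts, 14236 and 14235, which may share reads, alone held 48.6% and 50.8% of misc_RNA counts in AAE and 52.4% and 42.2% in control. Number 14236 had 71370 and 67926 raw counts in AAE and 70715 and 33660 in control. Control replicate 2 is the low library, and the other values lie close together. Its level was 6478 and 3264 CPM in AAE and 5255 and 2794 CPM in control, with a log2 fold change of 0.28 ± 1.09 (SE, edgeR adjusted p = 0.986). Number 14231 had 6908 and 7458 counts in AAE and 6193 and 3081 in control, again lowest in control replicate 2 (log2 fold change 0.46 ± 0.63, edgeR adjusted p = 0.961). On the TMM scale, replicate 1 exceeded replicate 2 for 20 of the 21 members in AAE and for 20 of the 21 in control.

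The smallest p of all 80 RNAs belonged to an oocyte clustered RNA of low abundance, number 11414. It had 260 and 381 counts in AAE and 181 and 119 in control. Its mean was 21.0 ± 3.74 CPM in AAE and 11.7 ± 2.53 CPM in control (SD, n = 2 each), and the groups did not overlap. The log2 fold change was 0.84 ± 0.30 (edgeR adjusted p = 0.945). Number 14216 had 192 and 273 counts in AAE and 167 and 100 in control (log2 fold change 0.55 ± 0.30, edgeR adjusted p = 0.945). Within the family, 18 of 21 log2 fold changes were above 0, with a median of 0.28 and a range of -0.31 to 0.84. Both AAE libraries lay above both control libraries for 3 members (11414, 14216 and 6521), beside 16.8% of all entries, and below them for 1 (14244), beside 17.8% of all entries. The family sum was 15822 and 8255 CPM in AAE and 12792 and 6964 CPM in control.

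The precursor rRNA family had the highest median, 0.65, and 26 of its 27 log2 fold changes were above 0. That count overstates the number of independent observations. Of the 25 entries named partial external transcribed spacer, 24 formed a chain in which each had counts within 10% of another in every library. The chain as a whole spanned 1611 to 1868 and 907 to 1139 counts in AAE and 829 to 1032 and 694 to 897 in control. These entries may count the same reads and are read here as 1 measurement. Their median level was 157 and 47.9 CPM in AAE and 67.2 and 64.2 CPM in control. Both control libraries agree, while AAE replicate 1 lies far above them and AAE replicate 2 below. The log2 fold changes of the 24 ran from 0.52 to 0.74, and their edgeR p-values before adjustment from 0.220 to 0.366. In unscaled CPM, the same entries stood at 113 and 77.8 in AAE and 62.0 and 57.5 in control, so that both AAE libraries were then above both control libraries. On that scale the groups did not overlap, with higher values in AAE, for 26 of the 27 members, beside 13.3% of all entries. Most of the 26 belong to the chain read as 1 measurement.

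The remaining spacer entry, URS000039CB91, stood at 32.2 and 14.9 CPM in AAE and 10.7 and 18.3 CPM in control (log2 fold change 0.69 ± 0.42, edgeR adjusted p = 0.945). The entry named 5' external transcribed spacer, the leading segment of the precursor, had 3494 and 3063 counts in AAE and 2138 and 2621 in control. Its log2 fold change was 0.30 ± 0.56 (edgeR adjusted p = 0.969). The partial 45S pre-ribosomal RNA was the 1 member of the family with a negative value, -0.38 ± 0.67. It had 6923 and 5161 counts in AAE and 8798 and 5906 in control, and its groups overlapped.

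Entries listed under the class rRNA, which are not members, had mostly negative log2 fold changes in the same fit (305 of 331 tested, median -0.39, none called). On the TMM scale that direction depended on 1 library. Without AAE replicate 2 only 89 of 342 were negative (median 0.12), and without AAE replicate 1 the median was -1.26. With library totals alone, 287 of 331 were negative (median -0.27). The rRNA class took 13.3% and 11.8% of all counts in AAE and 17.9% and 15.1% in control. By that share, rRNA was lower in both AAE libraries than in both control libraries. Set against rRNA, the near-identical spacer entries had a median of 847 and 658 counts per 1000000 rRNA counts in AAE and 346 and 382 in control. The 5' external transcribed spacer had 1708 and 2022 per 1000000 rRNA counts in AAE and 819 and 1294 in control. The partial 45S entry stayed nearly level on this scale, at 3384 and 3406 in AAE and 3371 and 2915 in control. All 27 members of the family were higher in both AAE libraries relative to rRNA, but with near-identical entries counted once they make only 4 measurements. The same held for 59 of the 80 RNAs (73.75%), with 19 of 21 oocyte clustered RNAs, 8 of 9 predicted genes and 1 of 8 germline small RNAs. Of all entries, 28.8% were higher in both AAE libraries and 0.471% were lower in both. No member passed the adjusted threshold when rRNA counts set the library size. The median of all entries moved to 0.76 under that scaling, and the family median of 1.05 lay 0.28 above it.

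An RNA that acts on the same precursor was among the other named RNAs. The partial C/D box snoRNA named as a likely homolog of human U8, a snoRNA needed for processing of the large-subunit rRNAs, had 4349 and 6315 counts in AAE and 2690 and 2956 in control. Its level was 395 and 303 CPM in AAE and 200 and 245 CPM in control, without overlap on this scale or in unscaled CPM. The log2 fold change was 0.65 ± 0.53 (edgeR adjusted p = 0.949). The 2 snoRNA-class entries named U8 had log2 fold changes of 0.43 and 0.55, which also missed the threshold and were ordinary for their class, where 96.4% of the 251 snoRNA entries with 100 or more counts in each library were above 0 (median 0.58).

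7SK RNA had 1389 and 1419 counts in AAE and 577 and 1305 in control. Control replicate 1 is the low library, and control replicate 2 lies near the AAE values. The level was 126 and 68.2 CPM in AAE and 42.9 and 108 CPM in control, with a log2 fold change of 0.36 ± 0.54 (edgeR adjusted p = 0.961). Of the entries listed as snRNA, 20 are also named 7SK. All 20 were lower in control replicate 1 than in control replicate 2, and 17 of the 20 had a log2 fold change above 0 (median 0.31, none called). That was ordinary for their class, where 82.8% of the 198 snRNA entries with 100 or more counts in each library were above 0 (median 0.27). Only 3 of the 20 reached that count. The 20 may count the same reads as the 7SK entry above, which was not tested, and may not be independent observations.

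Of the predicted genes, 4 followed 7SK from library to library. Predicted gene 24447 stood at 63.3% and 65.4% of the 7SK count in AAE and 64.6% and 65.4% in control. Predicted gene 26035 stood at 60.2% and 58.6% in AAE and 60.0% and 57.9% in control, and predicted gene 24146 at 41.1% and 41.4% in AAE and 42.1% and 39.7% in control. Predicted gene 26315, whose counts were near-identical to those of 24447, ranged from 59.3% to 70.4%. Entries in such fixed ratios may count the same reads, which was not tested, and their log2 fold changes of 0.28 to 0.39 are not independent of that of 7SK. The nuclear enriched abundant transcript 2, also called Malat1, a long RNA kept in nuclear speckles, was also lowest in control replicate 1, with 317 and 433 counts in AAE and 112 and 374 in control.

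**Figure D3:**
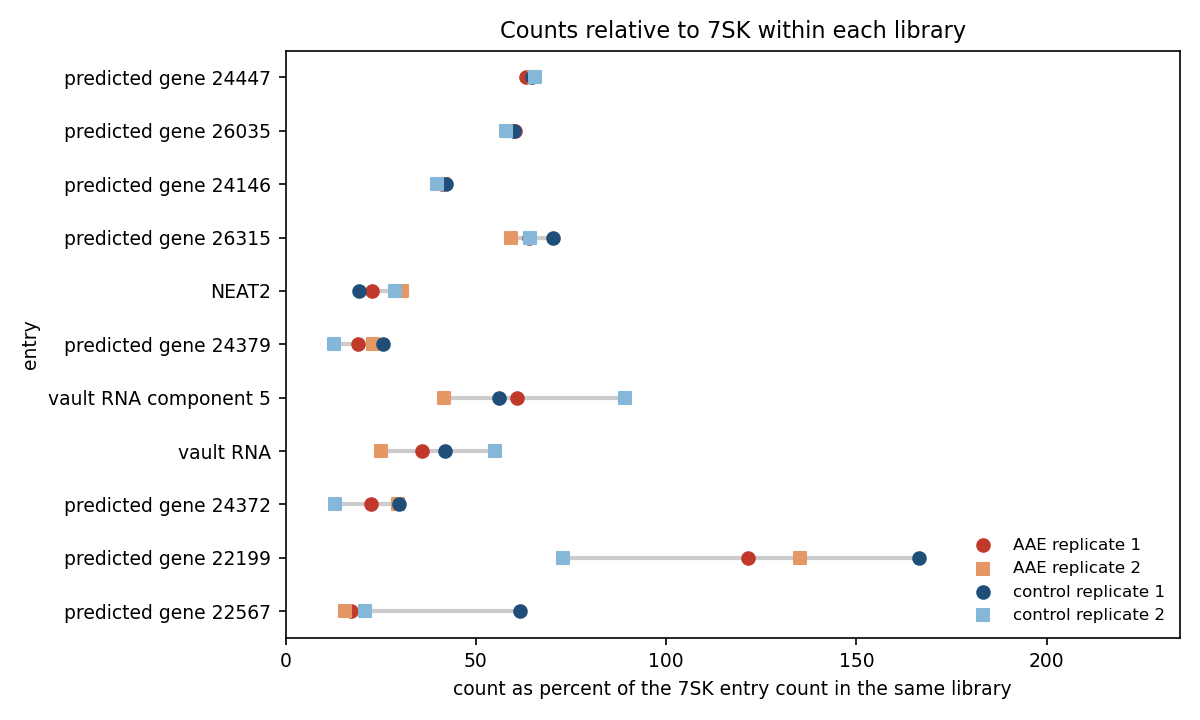
Counts of 8 predicted genes, 2 vault RNAs and nuclear enriched abundant transcript 2 (NEAT2) as a percent of the 7SK count of the same library; each point is 1 of the 4 libraries and the grey bar spans them. Predicted genes 24447, 26035 and 24146 kept a nearly fixed ratio to 7SK, while predicted genes 22199 and 22567 and the vault RNAs did not; predicted gene 26461, far more abundant than 7SK, is not shown.

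The other predicted genes did not follow 7SK. Predicted gene 24372 had 313 and 419 counts in AAE and 172 and 171 in control. Its mean was 24.3 ± 5.85 CPM in AAE and 13.5 ± 0.997 CPM in control (SD, n = 2 each), a log2 fold change of 0.84 ± 0.31 with no overlap (edgeR adjusted p = 0.945). Predicted gene 24379 had 263 and 327 counts in AAE and 147 and 165 in control (0.68 ± 0.31), and predicted gene 22199 had 1687 and 1917 in AAE and 961 and 953 in control (0.70 ± 0.45). For these 3 genes the control libraries were close to each other, and both AAE libraries lay above them on either scale. The same held for 16.8% of all entries on the TMM scale and for 13.3% in unscaled CPM. Each of the 3 had an edgeR adjusted p of 0.945. The files give no role for them.

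Predicted gene 22567 went the other way, with 237 and 221 counts in AAE and 356 and 272 in control. Its log2 fold change was -0.62 ± 0.37 (edgeR adjusted p = 0.945), and both AAE libraries were below both control libraries on either scale; in unscaled CPM it was the 1 member to do so, beside 2.73% of all entries. Without AAE replicate 1 it was the 1 member called (log2 fold change -1.29, edgeR adjusted p = 0.0332), in a fit that called 411 entries in all and in which the single AAE library is assumed to vary like the others. Predicted gene 26461, the most abundant of the family, had 8796 and 5873 counts in AAE and 8234 and 5121 in control, with overlap and a log2 fold change of 0.06 ± 0.70.

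The vault RNAs differed widely between the control libraries. Vault RNA component 5 had 845 and 590 counts in AAE and 323 and 1165 in control. The entry named vault RNA had 499 and 354 counts in AAE and 241 and 718 in control. In both, the lowest and the highest raw counts were in control libraries. After TMM scaling component 5 averaged 52.5 ± 34.2 CPM in AAE and 60.3 ± 51.4 CPM in control (SD, n = 2 each), and vault RNA stood at 45.3 and 17.0 CPM in AAE and 17.9 and 59.6 CPM in control, so that AAE replicate 2 was then the lowest library for vault RNA. The log2 fold changes were -0.20 ± 0.67 and -0.32 ± 0.60, and the vault RNA entry kept to between 59.1% and 74.6% of the count of component 5. The RNase P RNA subunit had 344 and 388 counts in AAE and 537 and 204 in control, so the controls enclosed the AAE libraries in raw counts (log2 fold change -0.19 ± 0.45, edgeR adjusted p = 0.975). Control replicate 1 was thus low for vault RNA and 7SK but high for RNase P RNA.

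The germline small RNAs were the most even family among the replicates on the TMM scale. Their sum averaged 195 ± 1.95 CPM in AAE and 211 ± 6.87 CPM in control (SD, n = 2 each). The most abundant, gsRNA43, averaged 64.6 ± 2.25 CPM in AAE and 78.0 ± 1.54 CPM in control (SD, n = 2 each), without overlap, and had a log2 fold change of -0.27 ± 0.38 (edgeR adjusted p = 0.961). Both AAE libraries lay below both controls for gsRNA43, gsRNA230 and gsRNA364, 3 of 8 members, beside 17.8% of all entries. Of the 8 log2 fold changes, 7 were below 0, beside 50.1% of all entries (median -0.06). The direction depends on the scaling. With library totals alone all 8 were above 0, with a median of 0.27, which is 0.09 below the median of all entries under that scaling (0.36). In unscaled CPM, gsRNA43 stood at 45.2 and 107 in AAE and 71.0 and 70.9 in control.

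Among the 11 other named RNAs, 6 log2 fold changes were above 0 and 5 below, with a median of 0.03. The most abundant, listed only as miscellaneous RNA URS00003E65A4, had 18972 and 10122 counts in AAE and 21521 and 8285 in control. The partial chimeric 16S ribosomal RNA had 8427 and 6761 counts in AAE and 12448 and 7061 in control (log2 fold change -0.47 ± 0.70, edgeR adjusted p = 0.961). Replicates of either group differed by more than the groups did for both. The remaining members had log2 fold changes between -0.25 and 0.60, and none had an unadjusted p under 0.05.

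**Figure D4:**
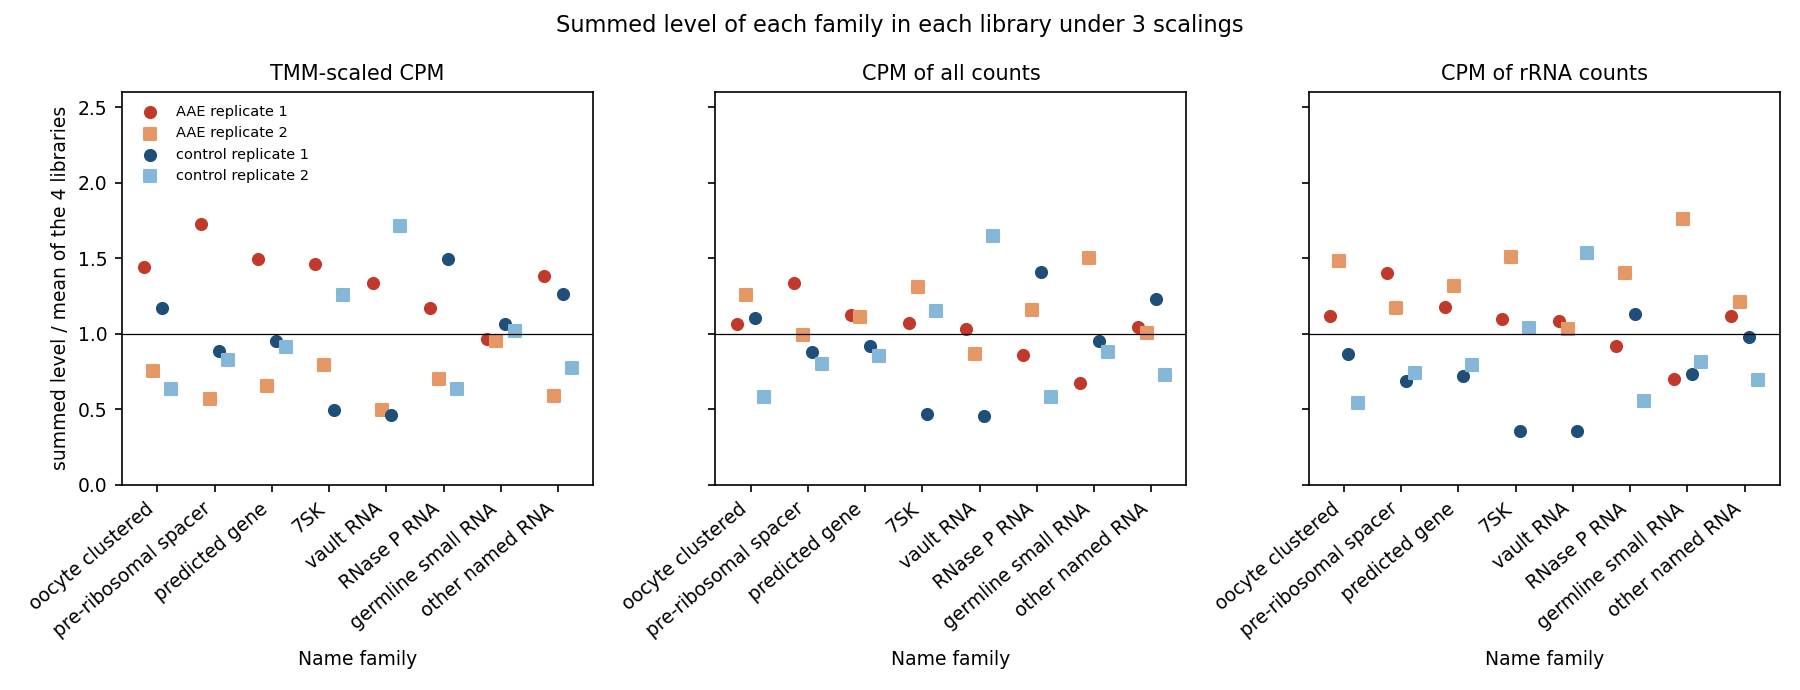
Summed level of each Name family in each library, divided by the mean of the 4 libraries, under 3 scalings (TMM-scaled CPM, unscaled CPM of all counts, and CPM of rRNA counts). AAE replicate 2 sits lower on the TMM scale than on both others in every family. The spacer and predicted gene families have both AAE libraries above both control libraries on both of those but not on the TMM scale.

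The direction of some of the 80 differed between scalings. With library totals alone, 74 of the 80 log2 fold changes were above 0, with a median of 0.60, but the median of all entries also moved to 0.36, so the 80 lay 0.24 above it. When misc_RNA entries were scaled to each other, the median of the 80 was 0.43 and that of all entries 0.13. Leaving out single libraries moved the values further. Without AAE replicate 1, only 16 of the 80 were above 0 and the median was -0.41; all 27 precursor rRNA entries were then below 0, with a median of -0.54. Without AAE replicate 2, 69 were above 0 and the median was 0.75, with 34 of the 80 (42.5%) at an unadjusted p under 0.05, beside 7.26% of all entries in that fit, and none called. Of these 34, 25 were precursor rRNA entries, most of them in the chain read as 1 measurement, with all 27 precursor rRNA entries above 0 (median 1.25). With near-identical entries counted once, the 80 became 54, of which 35 were above 0, with a median of 0.25.

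**Figure D5:**
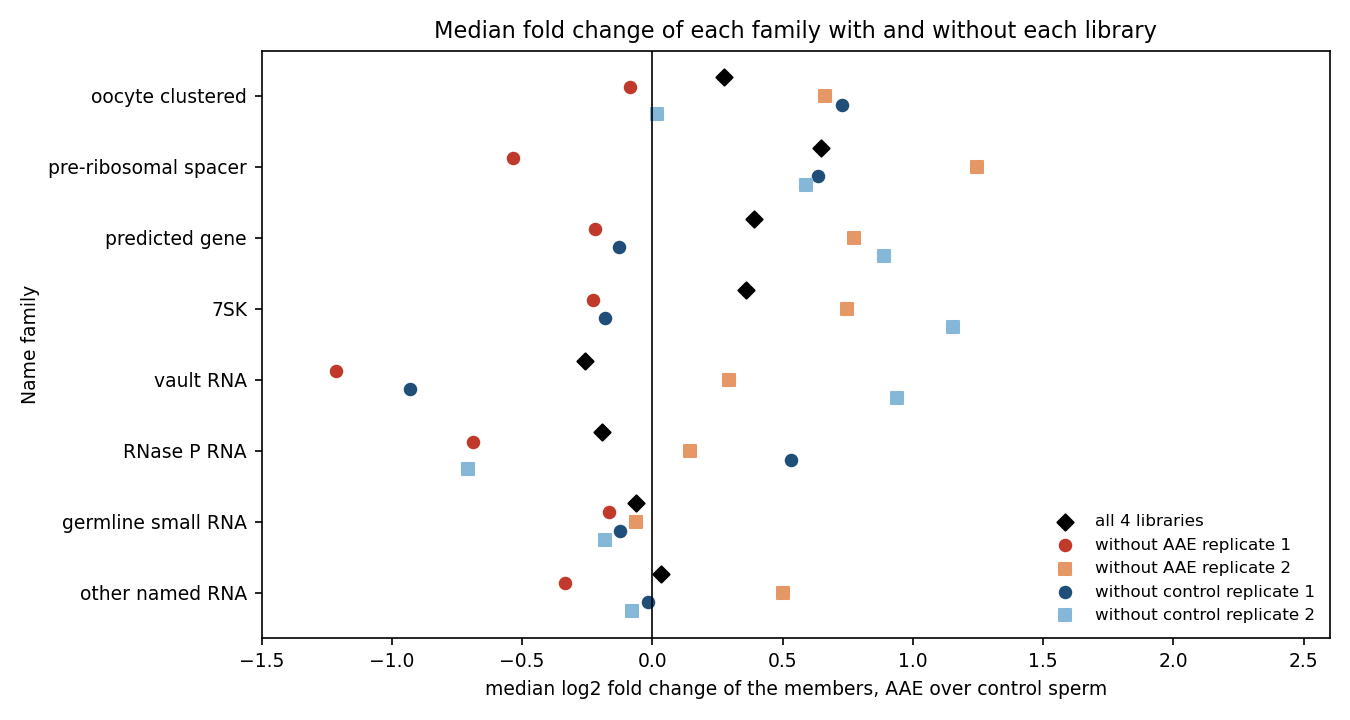
Median log2 fold change of the members of each Name family, AAE over control sperm, with all 4 libraries and without each library in turn. The spacer median ranges from -0.54 without AAE replicate 1 to 1.25 without AAE replicate 2, and only the germline small RNA median keeps its sign throughout.

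The rule's threshold cuts through a continuous range. Just inside it lay oocyte clustered small RNA 14216, with a lowest count of 100, gsRNA285 with 103 and oocyte clustered small RNA 6521 with 109. Just outside lay a partial C/D box snoRNA with a lowest count of 95, predicted gene 26168 with 94 and predicted gene 23624 with 88. In the authors' deposited table, the log2 fold change of 78 of the 80 RNAs had the same sign as in the fit above. In the authors' deposited table, 3 of the 80 (3.75%) had p under 0.05, beside 3.40% of its 22853 entries. The authors' deposited table gave these as predicted gene 24372 (log2 fold change 0.81), oocyte clustered small RNA 11414 (0.81) and the spacer entry URS000015D547 (0.71), with no adjusted p taken from it.

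The mRNAs of proteins that bind noncoding RNAs of such kinds were followed in the 2-cell embryos. There RNA-seq was deposited as FPKM, a level scaled to transcript length and to library depth. A list of 37 genes was drawn up for the Y RNA, 7SK, signal recognition particle, vault and RNase P particles. Zbp1 was included under Y RNA by its symbol, without a check that it names a Y RNA partner. Of the 37 genes, 35 passed a mean of 1 FPKM, Zbp1 not among them. None was called in AAE or AAS embryos against control (limma on log2(FPKM + 1), Benjamini-Hochberg over 9766 genes, smallest adjusted p = 1 in AAE and 0.659 in AAS). At an unadjusted p under 0.05, 0 of the 35 passed in AAE embryos, beside 2.11% of all genes, and 2 of the 35 passed in AAS embryos, beside 6.16% of all genes. No gene of the 11 RNAs themselves, 7SK and vault RNA among them, was listed in the embryo files. AAE and AAS embryos were compared with the same control libraries.

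Srp19, a protein that assembles early on the signal recognition particle RNA, had 9.30, 6.02 and 14.7 FPKM in AAS embryos and 28.1, 21.2 and 22.1 FPKM in control, without overlap. Its log2 fold change was -1.24 ± 0.35 (limma adjusted p = 0.659), and in AAE embryos it stood at 19.7, 34.8 and 20.0 FPKM (log2 fold change 0.02). Rpp25, a subunit of RNase P, had 18.7, 10.2 and 49.4 FPKM in AAS embryos and 42.4, 52.5 and 42.5 FPKM in control, with overlap (log2 fold change -1.06). It had 37.0, 25.1 and 19.9 FPKM in AAE embryos (-0.76). Among the 7SK partners, Mepce, which caps 7SK, averaged 27.9 ± 3.14 FPKM in AAE, 23.4 ± 5.70 in AAS and 25.9 ± 4.04 in control embryos (SD, n = 3 each). Ccnt2, a cyclin of P-TEFb, averaged 31.0 ± 7.61 FPKM in AAE, 25.4 ± 2.07 in AAS and 20.4 ± 4.66 in control embryos (log2 fold change 0.58 in AAE and 0.33 in AAS). Ssb, Ptbp1, Srp14 and Srp72, the most abundant partners of Y RNA and of the signal recognition particle, differed between AAE or AAS and control embryos by less than the larger SD of the groups compared. Ptbp1, a splicing regulator that also binds Y RNA, averaged 315 ± 8.32 FPKM in AAE, 279 ± 46.9 in AAS and 307 ± 58.6 in control embryos. Mvp, the major protein of the vault, was low in all 3 groups, at 1.12, 2.83 and 1.57 FPKM in AAE, 1.64, 0.290 and 0.590 in AAS and 0.980, 1.17 and 0.870 in control embryos.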

How the data were processed

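Per the labels' protocols, small RNA libraries came from cauda sperm, and embryo libraries from groups of 2-cell embryos with a Nugen Trio kit. For sperm the build mm9 and the tools edgeR, Bowtie2, Bowtie and FastQC are listed in the submitters' processing notes. For embryos these list mm10, DESeq2 and HISAT2 (2.0.4), with no role given. The deposited sperm files hold raw read counts per RNA entry, and how reads matching several entries were counted is not given in the sources used here, so near-identical entries are treated as uncertain. These were linked in chains, each entry within 10% of another in every library (entries of 50 or more counts), so the ends of a chain can differ by more. The authors' deposited table gave Names, log2 fold changes and p-values, used as theirs alone. The deposited embryo files hold FPKM per transcript, and genes missing from a library were taken as 0. Embryo depth is unknown. The 22 per-sample columns of the series tables were not used.

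Counts of all entries were fitted with edgeR 4.0.16 in R 4.3.3 (TMM, filterByExpr, quasi-likelihood, two-sided), the SE of a log2 fold change being its size divided by the square root of its F statistic, with DESeq2 1.42.0 as an alternative. Transcript FPKM were summed per gene, genes with a mean of 1 or more kept, and log2(FPKM + 1) of 9 libraries fitted with limma 3.58.1; this scale understates changes of low genes. The design had allowed for embryo counts. p-values were Benjamini-Hochberg adjusted at 0.05, and each statistical script was tested on simulated data. Counts per entry varied between sperm replicates by a biological coefficient of variation of 0.242. Members and lists were chosen with earlier results of these data known. The text names the 3 most abundant members of each family, the 10 with the smallest p and 3 on either side of the threshold; others were named after their values were seen. Of the embryo list, genes with p under 0.05 and the 2 most abundant per particle were eligible. Subfamilies of the other Names, the near-identity tolerance and scaling to rRNA were choices made after seeing the data. tRNA-Gly-GCC and tRNA-Glu-CTC entries could not be matched by Name, no muscle miRNA was matched, and the 1 red blood cell entry had 12 and 9 counts in AAE and 8 and 11 in control. Tables and figures were made in Python 3.11.15 (NumPy 2.4.6, pandas 2.3.3, matplotlib 3.10.9).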

Additional observations from a re-analysis of the deposited data

How the results depend on the processing

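No member was called under the other scalings, filters, tests, thresholds and counting rules tried, the replicate block included (0 called); leaving out libraries gave 0 to 1 called (predicted gene 22567 without AAE replicate 1). The unadjusted count ranged from 0 with near-identical entries counted once or DESeq2 to 16 (20% of the 80, beside 2.22% of all entries) with rRNA counts as library sizes, a setting chosen after seeing the data, and from 1 to 34 on leaving out a library. Labels do not state that replicate numbers mark pairs, and same-numbered sperm libraries correlated at 0.14 in their deviations. With 2 libraries a group, both same-numbered pairs give this value and unmatched pairs its opposite, so it cannot show pairing. With the number as a block, 5 of the 80 (6.25%, beside 6.64% of all entries) had an unadjusted edgeR p under 0.05. Predicted gene 26461 then turned to -0.10. No embryo partner was called under any pseudocount, filter, block or left-out library tried. The cause of the changes of sign below was not tested, and 2 libraries a group limit what could be called.

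Leaving out each library in turn moved the median of the 80 between -0.41 and 0.75. The log2 ratios of the family sums moved between -0.16 and 1.18 for 7SK, -0.68 and 0.56 for RNase P RNA, -0.26 and 0.79 for oocyte clustered, -0.80 and 0.44 for other named, -0.60 and 1.01 for precursor rRNA, -0.51 and 0.68 for predicted gene, and -1.13 and 1.00 for vault entries. With library totals alone the sums turned to 0.018 for RNase P RNA, 0.24 for germline small RNA and 0.064 for other named RNA. Relative to rRNA counts they turned to 0.47, 0.67 and 0.48 for these, and 0.16 for vault RNA. With near-identical members counted once the precursor rRNA sum turned to -0.077, and with all misc_RNA entries of the family the germline sum was -0.030.

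Of the 28 named RNAs, 7 kept their sign under every setting tried: oocyte clustered 11414 and 14216, the U8 homolog, and predicted genes 22199, 24372, 24379 and 22567. The groups of these 7 did not overlap in TMM-scaled CPM and in unscaled CPM, so leaving out 1 library could hardly turn their sign. All but the U8 homolog were named for being among the 10 smallest p of the same fit. On leaving out a library, the log2 fold change ranged from -0.23 to 1.15 for 7SK, -0.71 to 0.53 for RNase P RNA, -0.38 to 0.78 for oocyte clustered 14236, -0.40 to 0.79 for 14235, -0.078 to 0.92 for 14231, -1.31 to 0.67 for miscellaneous RNA URS00003E65A4, -1.30 to 0.028 for chimeric 16S, -1.29 to 0.15 for partial 45S and -0.43 to 0.76 for the 5' spacer. It ranged from -0.54 to 1.17 for spacer URS00001EDEEC, -0.52 to 1.35 for URS00002E1FA8, -0.53 to 1.36 for URS000021DB6E, -0.46 to 1.37 for URS000015D547 and -0.039 to 1.16 for URS000039CB91. It ranged from -0.96 to 0.63 for predicted gene 26461, -0.22 to 1.14 for 24447, -1.17 to 1.11 for vault RNA component 5 and -1.26 to 0.77 for vault RNA. With library totals, RNase P RNA turned to 0.023 and gsRNA43, gsRNA230 and gsRNA364 to 0.11, 0.27 and 0.16. With rRNA library sizes these turned to 0.47, 0.53, 0.69 and 0.57, URS00003E65A4 to 0.37, chimeric 16S to 0.056, partial 45S to 0.11, and vault RNA component 5 and vault RNA to 0.20 and 0.10.

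In AAE embryos, leaving out a library gave -0.10 to 0.18 for Ptbp1, -0.0076 to 0.21 for Mepce, -0.14 to 0.39 for Srp14, -0.24 to 0.15 for Srp19, -0.50 to 0.12 for Parp4 and -0.70 to 0.028 for Rpp14. In AAS embryos it gave -0.57 to 0.28 for Ssb, -0.30 to 0.044 for Mepce, -0.53 to 0.017 for Srp14, -0.48 to 0.033 for Mvp and -0.020 to 1.09 for Parp4.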
